A study of Mus musculus with 16 samples.

Results

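Siglecs are cell surface lectins of the immunoglobulin superfamily that bind sialic acid, the sugar that caps many glycans of the cell surface. The family members were the 7 genes Siglec1, Siglece, Siglecf, Siglecg, Siglech, Cd22 and Cd33, picked by symbol out of 55487 genes in a table of hippocampal gene counts. In T mice, which carry a mutant human tau transgene, Cd22 and Siglecf transcripts stood far above their level in the other genotypes. Cd33, Siglec1 and Siglece rose to a lesser degree, Siglech rose least, and Siglecg was barely detected. The rises of Siglec1 and Siglece did not pass the test in every alternative run.

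Most Siglecs of immune cells carry inhibitory tyrosine motifs in the cytoplasmic tail, which Src family kinases phosphorylate and to which the phosphatases encoded by Ptpn6 and Ptpn11 bind. Cd22, Siglecg, Siglecf and Siglece belong to this inhibitory class. Siglech instead pairs with the activating adaptor encoded by Tyrobp, and Siglec1, or sialoadhesin, is a macrophage adhesion receptor without inhibitory motifs. In mice Cd22 and Siglecg are known from B cells, Siglecf from eosinophils and alveolar macrophages, Siglece from neutrophils and macrophages, and Siglech from microglia and plasmacytoid dendritic cells. Microglia, the resident macrophages of the brain, express several of the family.

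RNA of right hippocampi was sequenced from female mice at an age of 40 weeks, in 16 libraries, 4 for each of 4 genotypes. TCKO mice carried the PS19 transgene and lacked Ch25h, the gene of cholesterol 25-hydroxylase, which makes the oxysterol 25-hydroxycholesterol. T mice carried PS19 with Ch25h intact, CKO mice lacked Ch25h without the transgene, and WT mice had neither change. PS19 drives human 1N4R tau with the frontotemporal dementia mutation P301S from the prion protein promoter. All mice were perfused with PBS before dissection. Whether each library came from its own mouse is not stated, so the p-values refer to library-to-library spread, part of which may be technical.

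Libraries held 15.06 to 34.35 M reads, on average 26.89 ± 3.13 in TCKO, 30.51 ± 2.85 in T, 22.07 ± 4.9 in CKO and 30.81 ± 2.53 in WT (SD, n = 4 each). Ch25h had 2 reads over the TCKO libraries, 736 in T, 3 in CKO and 103 in WT, as the labels name. Markers of choroid plexus, the epithelium of the ventricles, summed to 7680 CPM (counts scaled to a common library total) in T replicate 4 and 7300 CPM in WT replicate 1, against 20.3 to 420 CPM in the other 14 libraries. Where leaving out those 2 libraries ended a member's call, the value without them is given. Hippocampal neuron markers summed to 3160 to 4770 CPM in TCKO, 1540 to 3140 in T, 3570 to 4380 in CKO and 2840 to 4180 in WT. The part of this difference between libraries in the results on Siglecs was not tested.

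Of the members, 6 lie on mouse chromosome 7 in GRCm38. Siglecf (chr7:43351341-43359531, plus strand), Siglecg (chr7:43408204-43418358, plus), Cd33 (chr7:43524216-43544428, minus) and Siglece (chr7:43651070-43660161, minus) share a span of 308.8 kb. Cd22 (chr7:30865402-30880342, minus) and Siglech (chr7:55768178-55778925, plus) lie apart from that cluster. Siglec1 (chr2:131069220-131086765, minus) is on another chromosome. Cd22 overlaps the antisense transcript Gm29439, which had 5.59 estimated reads over all libraries, and no source used here says whether the counting used strand. Between 0.46% and 6.83% of a member's 31-base words also occur on the same strand in another gene, and Siglecf and Siglecg share 25 such words. On the opposite strand of other genes the share was 0% to 1.63% for the other members and 9.92% for Cd22.

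The upstream sequences of Siglecf and Cd33 are shown because these 2 members of the cluster, with Siglecg between them, share a run of 16 bases. Among RefSeq's GRCm38.p6 windows of 250 bases before the start, 6 of the 7 members were matched, and other pairs of members shared at most 10 bases in a row. The shared run occurred in 2 of 32851 windows on either strand, those of Siglecf and Cd33. The run was picked from these 2 windows, so its rarity among all windows was not a test. It began 27 bases before the Siglecf start and 157 bases before the Cd33 start, and is in capitals in these windows, from which annotated exons were left out:

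Siglecf, chr7:43351091-43351340, plus strand: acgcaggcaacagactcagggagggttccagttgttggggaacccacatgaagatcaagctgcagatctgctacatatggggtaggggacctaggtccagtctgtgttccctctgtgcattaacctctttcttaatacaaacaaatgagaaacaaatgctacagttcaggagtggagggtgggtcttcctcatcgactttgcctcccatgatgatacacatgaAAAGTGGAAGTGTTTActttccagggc

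Cd33, chr7:43533172-43533364, minus strand: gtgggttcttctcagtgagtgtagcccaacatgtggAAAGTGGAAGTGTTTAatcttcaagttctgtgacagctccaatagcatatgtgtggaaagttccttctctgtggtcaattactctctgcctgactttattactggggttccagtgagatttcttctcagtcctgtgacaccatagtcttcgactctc

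The run holds GGAAGT, a core of the motif that ETS family factors bind, which occurred on either strand in 19.7% of all windows and, among the members, also in that of Siglech. The interferon response motif GAAANN followed by GAAA, found in 2.98% of windows, and the AP-1 motif TGANTCA, found in 6.75%, were in the window of no matched member, and TTCNNNGAA, found in 7.02%, was in that of Siglech. A match describes letters and is not a bound site. The Cd33 window precedes the RefSeq start, and the GENCODE gene extends further upstream.

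Levels were first compared between the members per transcript length, as TPM, read counts corrected for effective transcript length and scaled to a common total. Siglech was the most abundant member in every genotype, at 21.9 ± 3.6 TPM in TCKO, 28.7 ± 3.26 in T, 16.5 ± 1.6 in CKO and 16.6 ± 2.67 in WT (SD, n = 4 each). The summed level of the 7 members was 26.5 ± 5.11 TPM in TCKO, 45.0 ± 2.73 in T, 19.4 ± 1.81 in CKO and 20.2 ± 3.46 in WT. Its composition also differed. Siglech made up 83.0 ± 2.57% of the sum in TCKO, 63.6 ± 4.08% in T, 85.1 ± 3.54% in CKO and 82.4 ± 2.78% in WT, and its highest share in T (66.5%) lay below its lowest in WT (79.8%). Siglecf accounted for 10.8 ± 2.87% in T and 1.79 ± 0.988% in WT, and Cd22 for 9.24 ± 2.56% in T and 0.491 ± 0.137% in WT.

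**Figure D1:**
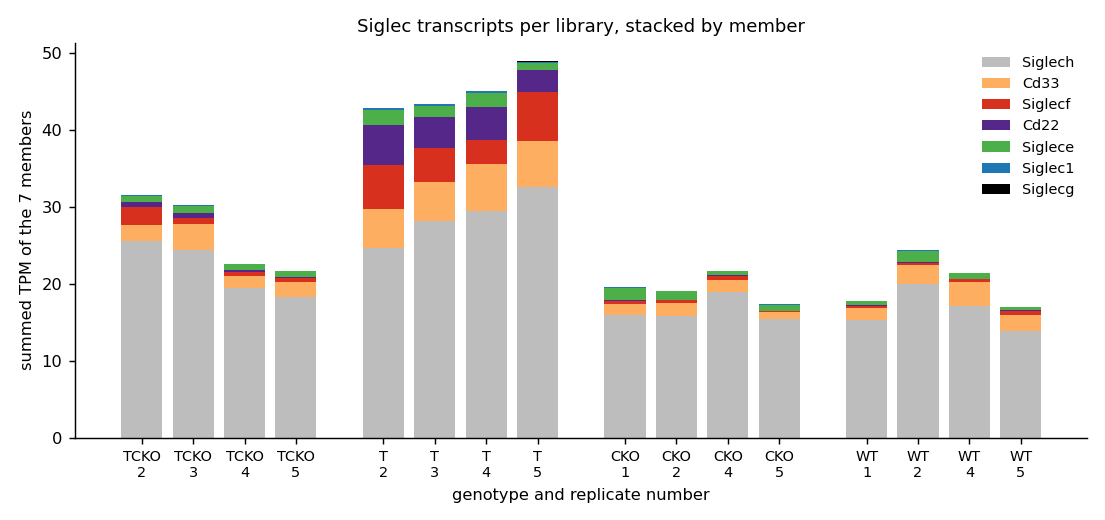
Summed TPM of the 7 members in each library, stacked by member, with genotype and replicate number on the x axis. The 4 T libraries reach 42.8 to 48.8 TPM, above all others, and there the Cd22, Siglecf and Cd33 segments take a visible part of the bar.

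By mean TPM the order in T was Siglech, Cd33 (5.58 ± 0.537), Siglecf (4.89 ± 1.38), Cd22 (4.11 ± 0.952), Siglece (1.52 ± 0.438), Siglec1 (0.211 ± 0.0778) and Siglecg (0.0198 ± 0.0168). The T libraries of Cd33, Siglecf and Cd22 overlapped in level, and whether these 3 genes differ within libraries was not tested. In WT the order below Siglech was Cd33 (2.33 ± 0.689), Siglece (0.748 ± 0.496), Siglecf (0.341 ± 0.139), Cd22 (0.0975 ± 0.0274), Siglec1 (0.0715 ± 0.0358) and Siglecg (0.004 ± 0.008). Neighbours overlapped in WT for Siglece with Siglecf and for Cd22 with Siglec1, while Cd33 lay above Siglece and Siglecf above Cd22 in every WT library. In TCKO the order below Siglech was Cd33 (2.25 ± 0.781), Siglecf (1.05 ± 0.827), Siglece (0.847 ± 0.107), Cd22 (0.386 ± 0.262) and Siglec1 (0.0498 ± 0.0235), where Cd33 overlapped Siglecf and Siglecf overlapped Siglece. In CKO it was Cd33 (1.4 ± 0.328), Siglece (0.996 ± 0.475), Siglecf (0.358 ± 0.199), Cd22 (0.0932 ± 0.0647) and Siglec1 (0.044 ± 0.0203), and each overlapped the next. Cd22 thus stood near Siglec1 in WT and near Cd33 in T.

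T was compared with WT to ask how the tau transgene altered the family with Ch25h intact. All 6 members that could be tested were higher in T, by 1.63-fold for Siglech up to 46.9-fold for Cd22 as ratios of mean CPM. The inhibitory receptors Cd22, Siglecf and Siglece, the myeloid receptor Cd33, the adhesion receptor Siglec1 and the Tyrobp partner Siglech all moved in that direction. Over all 18565 genes tested, 13% were higher in T, so a rise in itself was not unusual in these libraries. In 5 of the 6 members every T library lay above every WT library, as in 13.3% of all genes. The median log2 fold change of the 6 was 1.61, against -0.01 over all genes. Siglec1 passed the filter on low counts only through its 4 T libraries, as 2 WT libraries and no CKO or TCKO library reached the cutoff. Cd22 passed mainly through T and TCKO. The counts of members given here and their median thus partly follow from the filter.

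Cd22, which restrains B cell receptor signalling, was at 14.8, 9.78, 12.6 and 8.09 CPM in T replicates 2, 3, 4 and 5, against 0.291, 0.356, 0.18 and 0.141 CPM in WT replicates 1, 2, 4 and 5. The groups did not overlap, with the lowest T library far above the highest WT library. The log2 fold change was 5.5 ± 0.54 (SE; adjusted p = 3.39e-06, edgeR quasi-likelihood test with Benjamini-Hochberg adjustment, as for each adjusted p below).

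Siglecf, a receptor best known from eosinophils, was at 10.2, 7.81, 6.01 and 11.2 CPM in T and at 0.517, 0.445, 0.504 and 0.989 CPM in WT. The lowest T library was well above WT replicate 5, the highest of WT, and the fitted log2 fold change was 3.84 ± 0.52 (adjusted p = 5.51e-05).

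Cd33 was at 13.4, 11.1, 12.7 and 11.4 CPM in T, against 3.97, 4.45, 4.07 and 2.86 CPM in WT. The T libraries were close together and all above the WT libraries, with a log2 fold change of 1.66 ± 0.21 (adjusted p = 2.39e-05). Per transcript length it was smaller, 1.26 as the log2 ratio of mean TPM, and the effective length of Cd33 was 2407 to 3216 bases in T and 1572 to 3432 bases in WT.

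Siglec1 was at 0.891, 1.32, 1.06 and 0.562 CPM in T and at 0.226, 0.475, 0.432 and 0.141 CPM in WT, without overlap, with 115 reads in all T libraries and 39 in all WT libraries. The log2 fold change was 1.57 ± 0.46 (adjusted p = 0.0204). The call was lost without T replicate 3 (adjusted p = 0.0651), WT replicate 1 (0.0619) or WT replicate 5 (0.0683), without the choroid-rich libraries (0.108) and with no filter on low counts (0.0521).

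Siglece, an inhibitory receptor of neutrophils, macrophages and microglia, was at 2.71, 1.61, 2.43 and 1.31 CPM in T and at 0.646, 1.57, 1.04 and 0.459 CPM in WT. T replicate 5 lay below WT replicate 2, so the groups overlapped, and the fitted log2 fold change was 1.11 ± 0.37 (adjusted p = 0.0406). The call was lost when T replicate 2 (adjusted p = 0.135), T replicate 4 (0.0949), TCKO replicate 5 (0.0511), WT replicate 1 (0.109), WT replicate 4 (0.0612) or WT replicate 5 (0.119) was left out. It was also lost without the choroid-rich libraries (0.19), with no filter (0.068) and in a fit of the 8 compared libraries (0.08).

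Siglech was at 30.8, 29.4, 37.3 and 35.5 CPM in T and at 18.1, 23.0, 22.6 and 17.9 CPM in WT. The groups did not overlap, and the log2 fold change was 0.7 ± 0.14 (adjusted p = 0.00135). Siglecg was not tested: it had 6 reads over the T libraries (0, 1, 4 and 1) and 1 read over the WT libraries, a ratio of 6.06 with an exact 95% counting interval of 0.735 to 279.

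**Figure D2:**
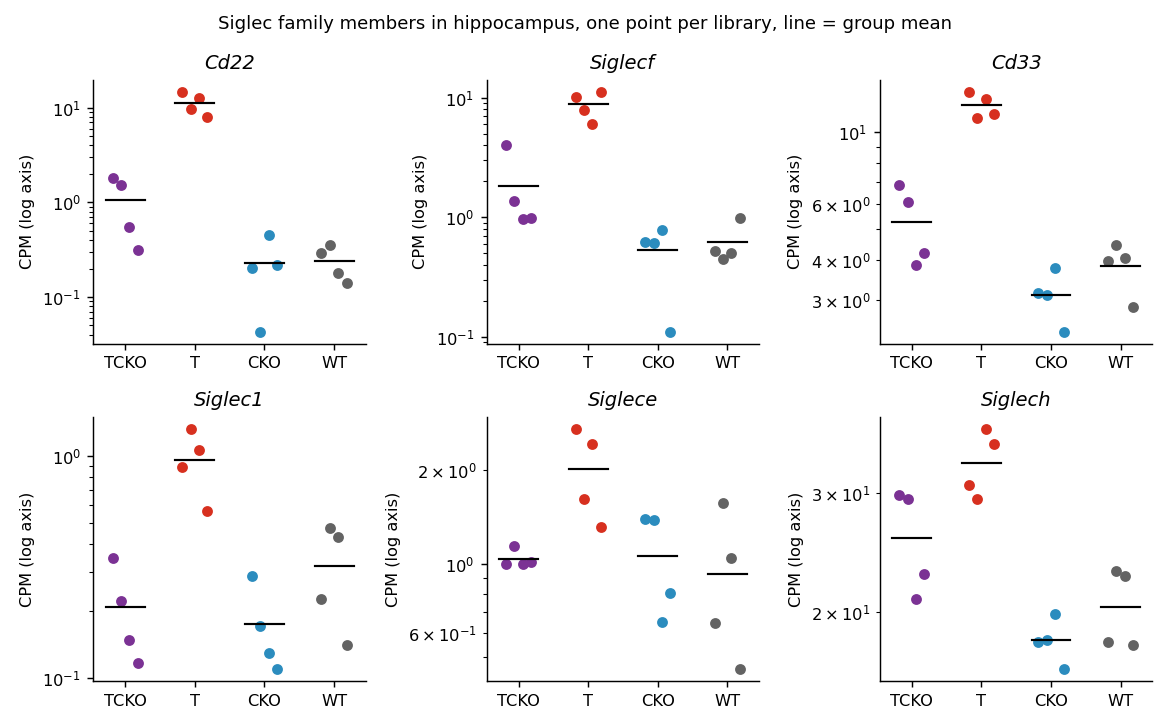
CPM of the 6 tested members in each library, by genotype, on log axes that differ between panels, with 1 point per library and a line at the group mean. T lies above WT without overlap in all panels but Siglece, and TCKO lies below T without overlap in all panels but Siglech.

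TCKO was compared with T to ask how loss of Ch25h altered the family in tau transgenic mice; this comparison shares its T libraries with the comparison above, so falls here and rises there are not independent. Cd22, Siglecf, Siglec1 and Cd33 fell in TCKO, by 10.8-fold, 4.83-fold, 4.59-fold and 2.32-fold as ratios of mean CPM. Siglece and Siglech, with ratios of 1.94 and 1.29 in the same direction, did not pass the test. Over all genes tested, 8.05% were lower in TCKO. Every TCKO library lay below every T library for 5 of the 6 members and for 9.65% of all genes. The median log2 fold change of the 6 members was -1.7, against 0.02 over all genes. Siglec1 passed the filter on low counts with no TCKO library at its cutoff, so its place in these counts and in the median partly follows from the filter.

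Cd22 was at 1.82, 1.52, 0.556 and 0.312 CPM in TCKO replicates 2, 3, 4 and 5, all below the lowest T library at 8.09 CPM. The log2 fold change was -3.42 ± 0.47 (adjusted p = 0.000165). Siglecf was at 3.99, 1.36, 0.964 and 0.975 CPM in TCKO, against at least 6.01 CPM in T, and changed by -2.28 ± 0.47 on the log2 scale (adjusted p = 0.00439). TCKO replicate 2 stood apart from its group: without it the Siglecf change was -2.99 (adjusted p = 0.000354).

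Siglec1 was at 0.347, 0.222, 0.148 and 0.117 CPM in TCKO, with 22 reads in all, and the highest of these lay below the lowest T library at 0.562 CPM. The log2 fold change was -2.18 ± 0.48 (adjusted p = 0.00704). Cd33 was at 6.85, 6.05, 3.86 and 4.21 CPM in TCKO, against at least 11.1 CPM in T, with a log2 fold change of -1.21 ± 0.2 (adjusted p = 0.000745). The calls on Cd22, Siglecf and Cd33 held under every alternative run, and that on Siglec1 under every one but the filter of 1 CPM in 4 libraries, which it did not pass.

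Siglece was at 0.998, 1.14, 1.0 and 1.01 CPM in TCKO, a narrow range below all T libraries, with a log2 fold change of -0.95 ± 0.37 (adjusted p = 0.105). Siglech was at 29.8, 29.4, 20.9 and 22.8 CPM in TCKO, where replicate 2 lay above T replicate 3, with a log2 fold change of -0.37 ± 0.13 (adjusted p = 0.0821). It passed with DESeq2 (0.0484) and with a filter of 1 CPM in 4 libraries (0.0468). Siglecg had no reads over the TCKO libraries, against 6 over the T libraries, 4 of them in T replicate 4.

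TCKO was compared with CKO to ask how the transgene altered the family without Ch25h. No member passed the edgeR test, with adjusted p-values of 0.0744 for Cd22, 0.0857 for Siglech, 0.0884 for Cd33 and 0.104 for Siglecf. These 4 had an unadjusted p under 0.05, a threshold at which the share of all genes was not counted. DESeq2 called these 4 members, and 787 of the 18565 genes in either direction. With limma voom, 0 members and 59 of all genes were called. Over all genes tested, 0.539% passed in edgeR in either direction, so few genes of any kind were called. The fitted log2 fold changes were 2.26 ± 0.57 for Cd22, 1.82 ± 0.53 for Siglecf, 0.76 ± 0.21 for Cd33 and 0.5 ± 0.14 for Siglech. Leaving out TCKO replicate 4 gave calls for Cd22, Cd33 and Siglech, and leaving out TCKO replicate 5 gave 1 for Cd22.

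Cd22 was at 0.312 to 1.82 CPM in TCKO, against 0.205, 0.0431, 0.455 and 0.22 CPM in CKO, and TCKO replicate 5 lay below the highest CKO library. Siglecf was at 0.964 to 3.99 CPM in TCKO, against 0.614, 0.603, 0.781 and 0.11 CPM in CKO, without overlap. The highest value was that of TCKO replicate 2, and the other TCKO libraries were at 0.964 to 1.36 CPM. Without 1 library the fitted log2 change of Siglecf ran from 1.11 to 2.06 and passed in 0 of 16 fits. Cd33 was at 3.86 to 6.85 CPM in TCKO, against 3.15, 3.1, 3.77 and 2.39 CPM in CKO, also without overlap. Siglech was at 20.9 to 29.8 CPM in TCKO, against 18.1, 18.2, 19.9 and 16.5 CPM in CKO, so for these 3 genes every TCKO library was the higher one. Over all genes, 5.32% had every TCKO library above every CKO library. For Siglec1 the fitted change was 0.22 ± 0.54 (adjusted p = 0.868) and for Siglece -0.04 ± 0.38 (adjusted p = 0.972), with overlapping libraries.

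CKO was compared with WT to ask how loss of Ch25h altered the family without the transgene. No member passed, whether by edgeR, DESeq2 or limma voom, and none had an unadjusted p under 0.05; over all genes, 0.0108% passed. The fitted log2 changes ran from -0.84 ± 0.52 for Siglec1 (adjusted p = 0.563) to 0.19 ± 0.38 for Siglece, with -0.18 ± 0.64 for Cd22, -0.26 ± 0.55 for Siglecf, -0.31 ± 0.21 for Cd33 and -0.17 ± 0.14 for Siglech. Cd22, Siglecf and Siglec1, with few reads in both groups, had larger SE than Siglech, and small changes of those 3 genes were not detectable at this depth. Siglecg had no reads over the CKO libraries.

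Whether the transgene's effect differed between the Ch25h genotypes was tested as the interaction, the TCKO minus CKO change less the T minus WT change. Cd22 passed at -3.25 ± 0.81 on the log2 scale (adjusted p = 0.0371), where 2.45% of all genes passed in that direction. This call held in 8 of 16 fits without 1 library and was lost without CKO replicate 1, 4 or 5, T replicate 2, 3 or 4, or WT replicate 4 or 5 (adjusted p of 0.0603 to 0.115), without the choroid-rich libraries (0.0823) and with limma voom (0.0886). The fitted interaction was -2.02 ± 0.72 for Siglecf (adjusted p = 0.135), -0.9 ± 0.29 for Cd33 (0.0977), -1.34 ± 0.72 for Siglec1 (0.332), -1.14 ± 0.53 for Siglece (0.259) and -0.2 ± 0.19 for Siglech (0.622), which did not pass. Of the 6 members, 4 had an unadjusted p under 0.05. The share of all genes under that unadjusted threshold was not counted, so whether 4 of 6 is unusual is not known. Without TCKO replicate 2, Siglecf also passed, at -2.73 (adjusted p = 0.0222). That was the only 1 of 16 fits without 1 library in which Siglecf passed (adjusted p up to 0.252). It passed in 0 of the 8 other alternative runs (adjusted p of 0.0502 to 0.194).

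**Figure D3:**
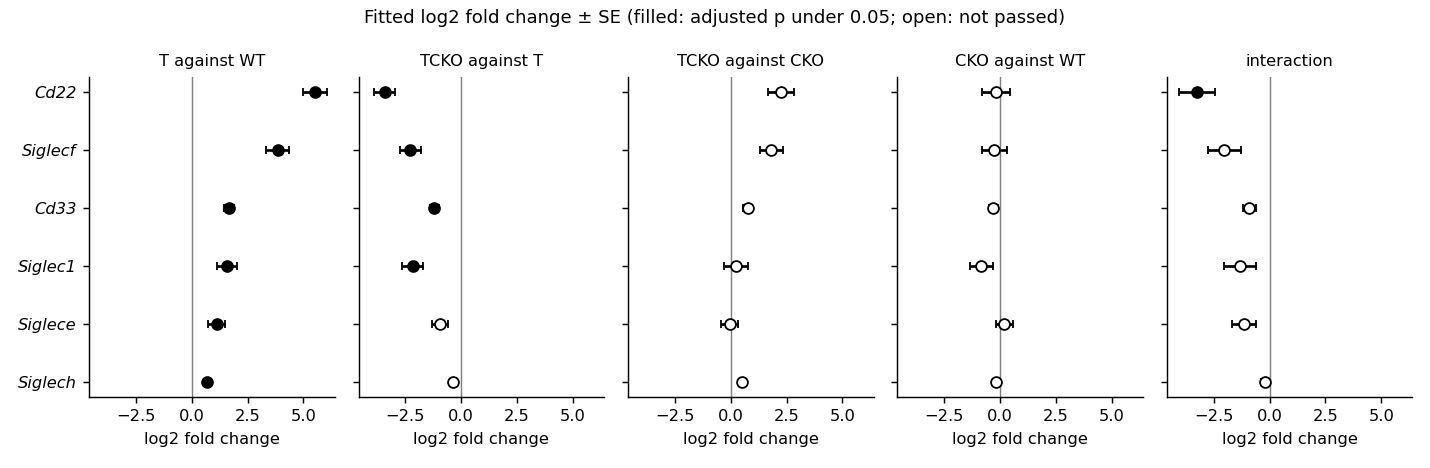
Fitted log2 fold change ± SE of the 6 tested members in the 4 comparisons and the interaction, from edgeR on 16 libraries, with filled points where the adjusted p was under 0.05. Cd22 shows the largest fitted change of the 6 in T against WT (5.5), TCKO against T (-3.42) and the interaction (-3.25).

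Microglia are known to carry several Siglecs, so member levels were also set against the summed CPM of 11 microglial markers such as P2ry12, Tmem119 and Csf1r. That sum was 673 to 1160 CPM in TCKO, 1480 to 1890 in T, 603 to 631 in CKO and 542 to 729 in WT; 10 of the 11 markers rose in T against WT and 8 fell in TCKO against T. In RNA of whole tissue, more cells of a type and more RNA per cell cannot be told apart. The ratios are given as a description with no test.

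Against this sum, Cd22 was 4.17 log2 units and Siglecf 2.44 log2 units higher in T than in WT, both without overlap between libraries. Cd33, Siglec1 and Siglece differed by 0.23, 0.24 and -0.23 with overlapping libraries. Siglech went the other way: its log2 ratio was -5.94 to -5.52 in T and -5.01 to -4.91 in WT, a difference of -0.73 without overlap. In TCKO against T the log2 ratio differed by -2.75 for Cd22, -1.53 for Siglecf, -1.28 for Siglec1, -0.27 for Cd33 and 0.6 for Siglech, each without overlap. The TCKO and CKO means of Siglech were close, at -5.09 and -5.08.

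**Figure D4:**
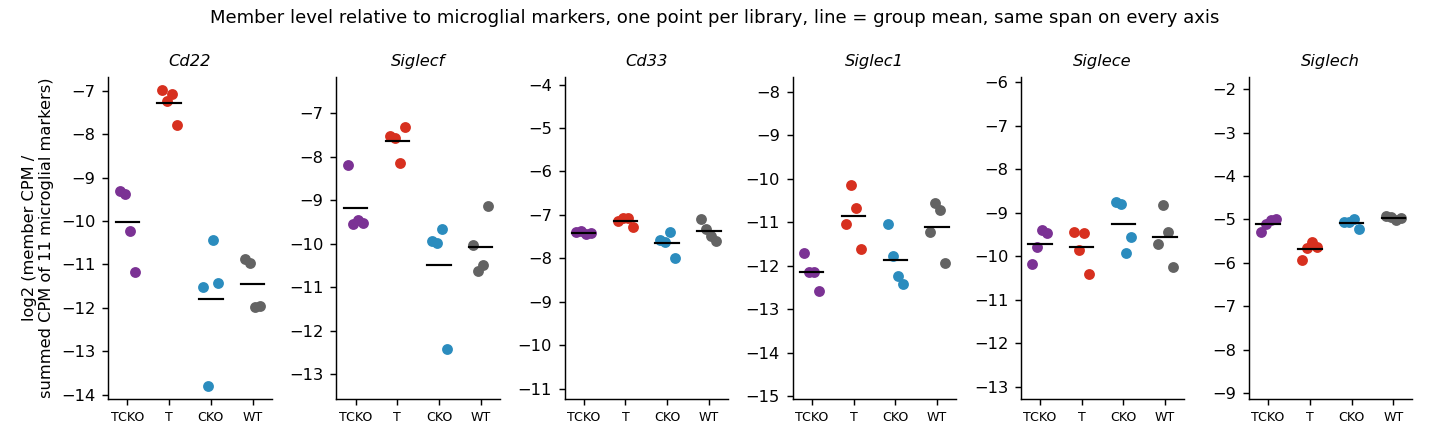
Member CPM divided by the summed CPM of 11 microglial markers, on a log2 scale with the same span in every panel, 1 point per library and a line at the group mean. Cd22 and Siglecf stand higher in T than in WT, Siglech stands lower in T, and the T and WT points of Cd33, Siglec1 and Siglece overlap.

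Markers of other cells that carry Siglecs were read in the same libraries. The 9 B cell markers summed to 1.27 to 1.73 CPM in TCKO, 2.62 to 16.2 in T, 0.716 to 1.42 in CKO and 1.31 to 1.57 in WT. Of these, 2 passed the filter on low counts, and both rose in T against WT and fell in TCKO against T, the same directions as Cd22. Cd79b, a subunit of the B cell receptor, had 77 reads over TCKO, 231 over T, 45 over CKO and 52 over WT, and rose by 2.16 ± 0.34 in T against WT (adjusted p = 0.000239). Jchain, a plasma cell gene, rose by 3.16 ± 0.95 (adjusted p = 0.0229) and was highest in T replicate 3 at 12.7 CPM, the library with the highest sum. Among the defining markers, Ms4a1 had 3 reads over TCKO, 10 over T, 0 over CKO and 2 over WT. The part of B cells in the Cd22 values was not tested.

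The 7 eosinophil markers summed to 0.444 to 1.25 CPM in TCKO, 0.446 to 1.7 in T, 0.22 to 0.517 in CKO and 0 to 0.288 in WT. The 1 marker that could be tested, the eosinophil peroxidase gene Epx, had 61 reads over TCKO, 96 over T, 28 over CKO and 21 over WT. It rose by 2.17 ± 0.72 in T against WT (adjusted p = 0.0374) and did not pass in TCKO against T, at -0.42 ± 0.66 (adjusted p = 0.734). Ear1 and Ear6 had no reads in any library. The part of eosinophils in the Siglecf values was not tested.

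The 9 neutrophil markers summed to 0.349 to 1.43 CPM in TCKO, 1.62 to 4.81 in T, 0.367 to 1.95 in CKO and 0.297 to 1.78 in WT, and Ly6g had no reads. Of the 3 tested, S100a9 rose in T against WT and none passed in TCKO against T. The 5 markers of plasmacytoid dendritic cells summed to 2.72 to 6.04 CPM in TCKO, 11.5 to 19.7 in T, 3.65 to 4.81 in CKO and 5.9 to 11.6 in WT, mostly as Cox6a2. Of the 2 tested, none passed in T against WT and Cox6a2 fell in TCKO against T. The part of neutrophils and plasmacytoid dendritic cells in the levels of Siglece and Siglech was not tested.

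Siglec1 is known from border macrophages and as an interferon-stimulated gene. The 8 border macrophage markers summed to 7.8 to 11.9 CPM in TCKO, 18.3 to 53.0 in T, 6.92 to 13.1 in CKO and 11.1 to 16 in WT. Of these 8, Ms4a7 rose in T against WT, at 16 ± 9.71 CPM in T and 0.96 ± 0.378 CPM in WT, and the other 7 did not pass, with a list median of 0.22 on the log2 scale. In TCKO against T, Ms4a7, Cd163 and Pf4 fell and 5 did not pass. The 12 interferon-stimulated genes summed to 85.3 to 181 CPM in TCKO, 599 to 1070 in T, 72.8 to 164 in CKO and 87.6 to 183 in WT, and 12 of 12 rose in T against WT and 11 of 12 fell in TCKO against T. The part of either in the Siglec1 values was not tested.

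The genes with the most similar profiles were found as the smallest root mean square difference between mean-centred log2 CPM over the 16 libraries, among 13140 genes. Cd22 was nearest to Cd52 (0.43), Lyz2 (0.518) and Ccl2 (0.55), where the median gene differed by 2.3. Siglecf was nearest to Cd180 (0.513), Lag3 (0.572) and Cd84 (0.596), against a median of 1.76. Siglec1 was nearest to Dhx58 (0.366), Lrrk1 (0.417) and Ifit2 (0.42), against a median of 0.981.

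Cd33 was nearest to Hpgds (0.14), Nckap1l (0.182) and Npc2 (0.184), against a median of 0.849. Siglece was nearest to Fmo5 (0.292), Grb14 (0.311) and Ang (0.319), against a median of 0.681, and Siglech to Septin2 (0.132), Prcp (0.138) and Rcbtb2 (0.15), against a median of 0.483. The members' own root mean square deviation from their mean ran from 0.37 for Siglech to 2.26 for Cd22, so the measure also follows the size of a member's variation. Between members, the profiles of Siglech and Cd33 were closest (0.453), at more than Siglech's own deviation, and those of Siglech and Cd22 farthest apart (1.94). Siglecf and Cd22 differed by 0.993, less than Cd22 differed from any of the other 4 tested members.

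Of 10 tested genes of intracellular partners of Siglecs (adaptors, kinases and phosphatases), 9 passed the test in T against WT and 8 in TCKO against T, where 24.2% and 12.9% of all genes passed in either direction. Of 32 tested genes for making, attaching, removing or modifying sialic acid, their ligand, 10 passed in T against WT (31.2%) and 7 in TCKO against T (21.9%). Among adaptors, all 3 rose in T against WT. Tyrobp, the partner of Siglech, averaged 196 ± 34.8 CPM in T and 25.6 ± 5.58 CPM in WT, a log2 fold change of 2.93 ± 0.26 (adjusted p = 1.52e-06). Fcer1g rose by 2.74 ± 0.23 and Hcst by 3.52 ± 0.62. In TCKO against T all 3 fell, with Tyrobp at 47.0 ± 19.8 CPM in TCKO. Tyrobp fell by 2.06 ± 0.25 on the log2 scale (adjusted p = 5.46e-05), Fcer1g fell by 2.06 ± 0.23 and Hcst fell by 2.31 ± 0.58; the Hcst call was lost without T replicate 2 (adjusted p = 0.0535).

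Of 4 kinases, all rose in T against WT, among them the Src family members Lyn (1.83 ± 0.19) and Fgr (5.82 ± 0.69), and in TCKO against T Lyn fell by 1.09 ± 0.18 and Fgr fell by 2.63 ± 0.56. The call on the kinase Syk, at 1.18 ± 0.37 in T against WT, was lost without T replicate 2 or 4 or WT replicate 2, 4 or 5 (adjusted p of 0.0576 to 0.0827) and in the fit of the 8 compared libraries (0.0522). Of 3 phosphatases, Ptpn6, which encodes SHP-1, rose by 2.63 ± 0.29 and Inpp5d, which encodes SHIP1, by 1.66 ± 0.16 in T against WT, and in TCKO against T Ptpn6 fell by 1.87 ± 0.28 and Inpp5d fell by 1.12 ± 0.16. Ptpn11, which encodes SHP-2, did not pass in either comparison. Ptprc, whose product CD45 is a glycoprotein that CD22 binds, averaged 29.4 ± 2.5 CPM in T and 3.66 ± 1.11 CPM in WT, a rise of 3.01 ± 0.36, and fell by 2.11 ± 0.34 in TCKO against T; the other 2 counter-receptors did not pass.

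Of 19 sialyltransferases tested, which attach sialic acid to glycans, 4 rose, 2 fell and 13 did not pass in T against WT, with a median log2 fold change of 0.01. Of all genes, 24.2% passed in either direction in T against WT and 12.9% in TCKO against T. The number of sialyltransferases called was 5 in place of 6 with the replicate block, where the call on St8sia6 was lost (adjusted p = 0.0731), 4 without the choroid-rich libraries and 4 to 6 without 1 library. The St8sia6 call held in 5 of 16 fits without 1 library and was lost in the fit of the 8 compared libraries (adjusted p = 0.109). St8sia2, a polysialyltransferase, rose by 1.81 ± 0.39 (adjusted p = 0.00315), and St8sia3 fell by 0.66 ± 0.13 (adjusted p = 0.00168). In TCKO against T, 2 rose, among them St8sia3 by 0.65 ± 0.13 (adjusted p = 0.00335), 3 fell and 14 did not pass; the number called was 1 or 2 in place of 5 without CKO replicate 1, T replicate 2, 3 or 4 or TCKO replicate 2, 4 or 5, and 1 without the choroid-rich libraries or in the fit of the 8 compared libraries. Of 5 genes of sialic acid synthesis, Nanp fell by 0.62 ± 0.12 in T against WT (adjusted p = 0.00164) and the other 4 did not pass, where 2 were called by DESeq2, by limma voom, with upper quartile factors and without T replicate 5 or WT replicate 4.

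Of 8 genes of sialic acid removal and modification, 2 rose and 1 fell in T against WT. Ctsa, the lysosomal protective protein of the sialidase Neu1, averaged 273 ± 28.2 CPM in T and 125 ± 9.61 CPM in WT, a rise of 1.12 ± 0.12 (adjusted p = 5.39e-06). Npl, which cleaves free sialic acid, rose by 1.12 ± 0.2 and Casd1, which acetylates sialic acid, fell by 0.6 ± 0.12. In TCKO against T, Ctsa fell by 0.93 ± 0.12 and Npl fell by 1.09 ± 0.2. Of the other lectins of the family, Mag, the myelin Siglec of oligodendrocytes, rose by 1.36 ± 0.36 in T against WT (adjusted p = 0.0113), a call lost in the fit of 8 libraries (0.0518), and Siglec15 had no reads in any library.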

How the data were processed

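Per the labels' protocols, libraries were primed with oligo-dT (SMARTer Ultra Low). The submitters' processing notes list bcl2fastq, STAR 2.5.1a, Subread, featureCounts 1.4.6-p5 and GRCm38 but give no role to any of them. The deposited series table holds estimated counts per gene, with fractions, in 55774 lines for 55487 genes, of which 287 lines repeat a gene and were dropped. Per the file headers, the deposited file of each sample adds TPM and effective lengths under column names that match salmon output; the quantifier and the annotation behind the values are not given in the sources used here. All 887792 count values compared were equal in both kinds of file within 0.01 reads.

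After rounding, counts went into edgeR 4.0.16 under R 4.3.3 (TMM, filterByExpr with 10 counts, that is 0.362 CPM, in at least 4 libraries, quasi-likelihood F-tests, all 16 libraries with 1 mean for each genotype, Benjamini-Hochberg adjustment over 18565 genes, threshold 0.05). The step was tested on simulated data. CPM are relative to library totals scaled by the TMM factors. Of the 7 members, 6 passed the filter. Alternatives were DESeq2 1.42.0, limma 3.58.1 voom, RLE and upper quartile factors, other filters, a fit of the 8 compared libraries, the replicate number as a block, leaving out each library or the choroid-rich libraries, and TPM in place of CPM.

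Same-numbered libraries of T and WT deviated weakly together, with correlations of 0.12, 0.14 and 0.3 for the 3 shared numbers. The correlations for TCKO with T (-0.14 to 0.17), TCKO with CKO (-0.03 to 0.04) and CKO with WT (-0.05 to 0.27) did not all exceed 0.1. The labels give these numbers only as replicates, so whether they pair libraries is not known. Coordinates come from GENCODE M21 on GRCm38 and upstream sequences from RefSeq GRCm38.p6. Motifs were searched in the 250 bases before the start on both strands. Named were all members, for each tested member the 3 genes of most similar profile with a mean of at least 1 CPM, and up to 3 genes of each pathway list by p, of which a part is printed; Syk, St8sia6 and the cell type markers given one by one were added after their values were seen. The members, gene lists and marker lists were chosen with earlier results of these data known.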

Additional observations from a re-analysis of the deposited data

Results flagged for a closer look

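In 4 of 26 groups of 4 libraries, the highest library stood apart from the other 3 by Dixon's criterion. Chance meets it in about 1 in 20 groups of normally distributed values, a rate that need not hold for groups with few reads. Siglecf in TCKO replicate 2 was at 3.99 CPM, against 0.964 to 1.36 CPM in the other TCKO libraries. Siglecf in WT replicate 5 was at 0.989 CPM, against 0.445 to 0.517 CPM in the other WT libraries. Siglece in TCKO replicate 3 was at 1.14 CPM, against 0.998 to 1.01 CPM, a gap that is small beside the spread of the other genotypes. Siglecg in WT replicate 2 was at 0.0297 CPM, which is 1 read. The other WT libraries had 0 reads of Siglecg, so any read in a single library would have met the criterion.

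The effect of the tau transgene on Cd22 differed between mice without Ch25h and mice with it in the fit of all libraries, with an interaction of -3.25 on the log2 scale (edgeR, adjusted p = 0.0371). The call held in 8 of 16 fits without 1 library (adjusted p up to 0.115) and was lost with limma voom (0.0886) and without the choroid-rich libraries (0.0823).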

How the results depend on the processing

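In T against WT, the calls on Cd22, Siglecf, Cd33 and Siglech held in every alternative run, and so did those on Cd22, Siglecf and Cd33 in TCKO against T. The Siglec1 call in TCKO against T held wherever Siglec1 was tested; it did not pass the filter of 1 CPM in 4 libraries. Leaving out 1 library gave 4 to 6 calls in T against WT. The replicate block changed no member's call; with it the members called numbered 6 in T against WT, 4 in TCKO against T, 0 in TCKO against CKO, 0 in CKO against WT and 1 in the interaction. In TCKO against CKO, where 0 members passed, DESeq2 called 4, the fit with no filter on low counts called 1, and leaving out 1 library gave 0 to 3. In the interaction, where 1 passed, DESeq2 called 2, limma voom 0, the fit without the choroid-rich libraries 0, and leaving out 1 library gave 0 to 2. The cause of these differences was not tested.

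The direction turned for changes that did not pass. In CKO against WT these were Cd22 (0.18 without CKO replicate 2, 0.07 without WT replicate 2), Siglecf (0.11 without CKO replicate 5, 0.06 without WT replicate 5) and Siglece (-0.03 without WT replicate 5); without 1 library they ran from -0.61 to 0.18, -0.48 to 0.11 and -0.03 to 0.57. In TCKO against CKO they were Siglece (0.01 with limma voom, 0.06 with the replicate block, 0.14 without CKO replicate 1, 0.12 without CKO replicate 2) and Siglec1 (-0.1 without TCKO replicate 2), with ranges of -0.18 to 0.14 and -0.1 to 0.6 without 1 library. As log2 ratios of mean TPM in place of CPM, Cd33 was 1.26 in T against WT and -0.73 in CKO against WT, Siglece was -0.84 in TCKO against T and -0.23 in TCKO against CKO, and Siglech was -0.01 in CKO against WT.

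Of all genes, 4490 passed in T against WT (2696 without the choroid-rich libraries, 2934 without T replicate 2) and 2388 in TCKO against T (1591 without the choroid-rich libraries, 1354 from the 8 libraries, 1294 without T replicate 2, 1467 without TCKO replicate 5). In TCKO against CKO 100 passed, with 787 by DESeq2, 59 by limma voom, 252 with no filter, 301 from the 8 libraries, 5 with the replicate block and 11 to 266 without 1 library. In CKO against WT 2 passed, with 114 by DESeq2 and 0 to 8 otherwise. In the interaction 584 passed, with 1263 by DESeq2, 378 without the choroid-rich libraries and 298 to 1266 without 1 library. Siglec1 and Siglecg had too few reads for small changes to be detectable.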
